A study of Mus musculus with 8 samples.

Results

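A set of 10 genes that encode enzymes and helper proteins of prostaglandin, thromboxane and leukotriene synthesis was followed in mast cells with reduced Mettl3. They were chosen by name, as members of the pathway and by no threshold on their values, though with earlier results of these data known: Pla2g4a, Ptgs1, Ptgs2, Hpgds, Tbxas1, Ptges3, Alox5, Alox5ap, Lta4h and Ltc4s. These are 10 of the 56748 gene IDs in the deposited count tables, and all 10 passed the filter on low counts. The RNA came from resting bone-marrow-derived mast cells (BMMCs), which are mast cells grown from mouse marrow with IL-3. The marrow was that of C57BL/6 mice, 6 to 8 weeks old. In the group called Mettl3-RNP, labelled Mettl3 KO, cells were electroporated with Cas9 bound to guide RNAs against Mettl3, and the cultures remained mixtures in which some cells kept the protein. In the group called Pulsed, labelled Mettl3 WT, cells were mock transfected and received no Cas9 complex, so no group controls for Cas9 or a guide without a target. Each group held 4 libraries, and the 8 libraries came from 4 mice. Same-numbered libraries were compared as pairs, and the question was which synthesis genes differed in level when Mettl3 was targeted.

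Eicosanoids are oxygenated fatty acids that act close to the cell that makes them. Cytosolic phospholipase A2 frees arachidonic acid from membranes, the cyclooxygenases Ptgs1 and Ptgs2 turn it into prostaglandin H2, and terminal synthases make prostaglandin D2, prostaglandin E2 or thromboxane from it. On the other branch 5-lipoxygenase, with the membrane protein FLAP, makes leukotriene A4, which becomes leukotriene B4 or leukotriene C4. Activated mast cells are known for making prostaglandin D2 and leukotriene C4 within minutes. Mettl3 is the catalytic subunit of the enzyme complex that writes m6A, a methyl mark on adenosines of mRNA.

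Mettl3 itself was measured first, since it checks the labels. Its level, in CPM (counts per 1000000 counts, scaled by TMM library sizes), was 12.3, 9.18, 4.88 and 9.21 in Mettl3-RNP libraries 1 to 4 and 25.9, 24.5, 11.2 and 26.5 in Pulsed libraries 1 to 4. It was lower in 4 of 4 pairs, and the groups overlapped because Pulsed 3 lay below Mettl3-RNP 1. The fitted log2 fold change was -1.30 ± 0.109 (SE, adjusted p = 0.00543, edgeR quasi-likelihood test with the replicate number as a block), which left 40.5% of the Pulsed level. An exact two-sided sign-flip test of the 4 paired differences gave p = 0.125, the smallest it can give with 4 pairs. Mettl3 shares 2308 exonic bases with Tox4 on the opposite strand, and the strand setting of the counting is not stated.

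Among the 10 synthesis genes, Ptges3 was lower after Mettl3 targeting, at 74.6% of the Pulsed level, and no other member passed the test. The fitted log2 fold changes of the other 9 lay between -0.25 and 0.22, and 5 of the 10 were above 0 and 5 below. Over all 14942 genes tested, 3.74% passed the same threshold of an adjusted p of 0.05, and 1.39% passed it with a lower level. The median log2 fold change was 0.00 for the 10 genes and 0.00 for all tested genes. At an unadjusted p under 0.05 stood 3 of the 10 genes, against 22.5% of all tested genes. In bulk RNA, fewer cells that express a gene and less RNA per cell cannot be told apart.

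**Figure D1:**
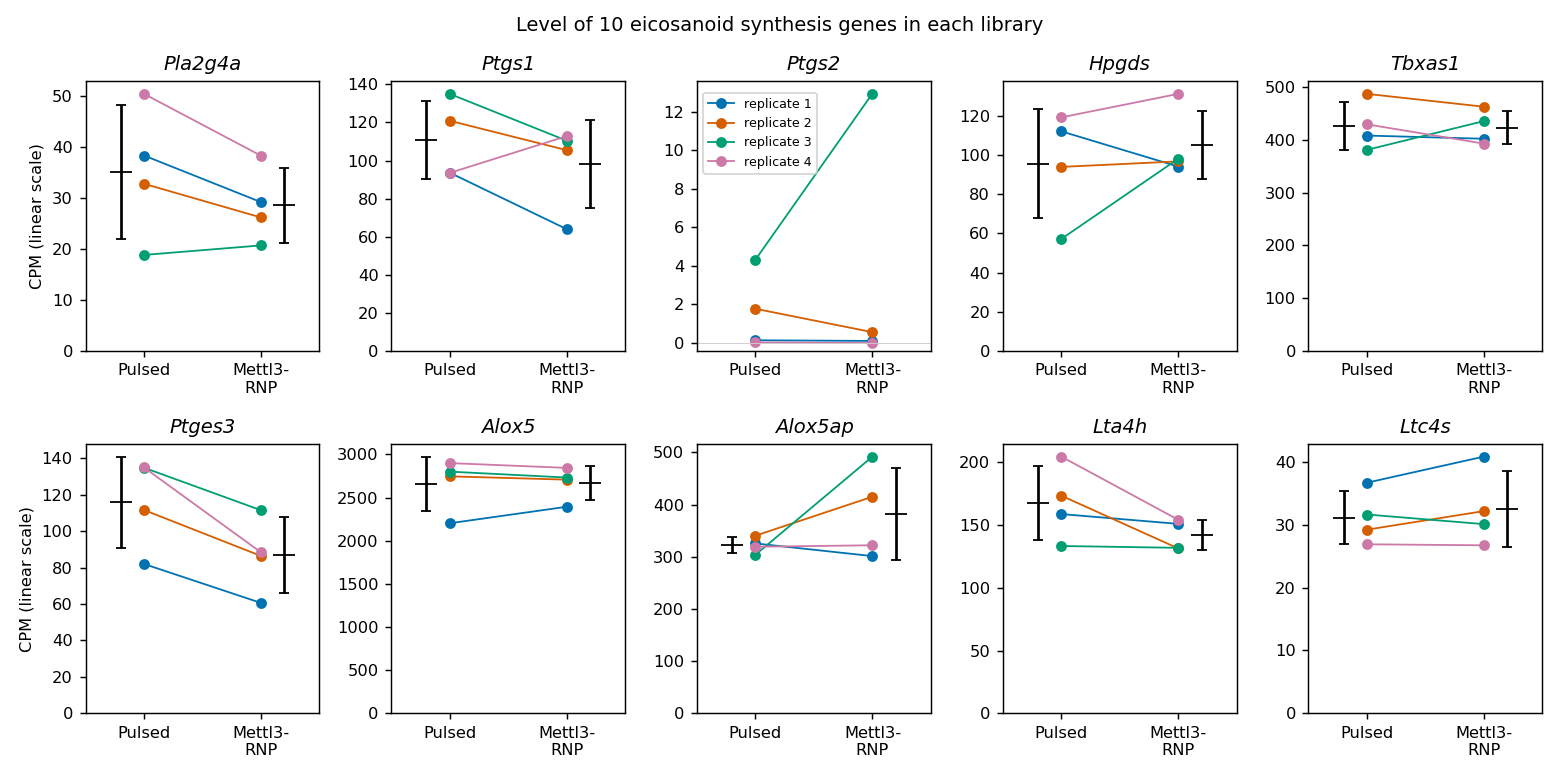
Level of each of the 10 synthesis genes in CPM (linear axis) in the Pulsed and Mettl3-RNP libraries. Coloured points joined by a line are the 2 libraries of 1 replicate number, and black bars are the group mean ± SD (n = 4), which is not drawn for Ptgs2. Ptges3 and Lta4h slope down in 4 of 4 pairs, while Ptgs2 is near 0 except in replicates 2 and 3.

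Levels can be set against each other only per length of transcript. Per kilobase, the Pulsed means ran from 942 CPM per kb for Alox5 down to 0.330 for Ptgs2. Alox5 held rank 39 among 12056 tested protein-coding genes. Alox5ap followed with 258 CPM per kb, then Tbxas1 with 211, Lta4h with 81.4, Ptges3 with 57.7, Ltc4s with 47.1, Ptgs1 with 38.6, Hpgds with 24.9 and Pla2g4a with 12.3. Ranges over the 4 Pulsed libraries overlapped between the neighbours Lta4h and Ptges3, Ptges3 and Ltc4s, Ltc4s and Ptgs1, and Hpgds and Pla2g4a, so the order within these pairs was not clear of the spread between libraries. Within a library, Ltc4s lay above Ptgs1 and Hpgds above Pla2g4a in 4 of 4 Pulsed libraries, and Lta4h above Ptges3 and Ptges3 above Ltc4s in 3 of 4. Dividing by all annotated exons instead moved Ptges3 from the fifth to the third place and Lta4h from the fourth to the seventh, and Tbxas1, Ltc4s and Ptgs1 by 1 place each.

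Reads of genes that overlap on opposite strands may not be told apart here. Exonic bases are shared in this way by 8 of the 10 members. Ptgs2 shares 476 with Ptgs2os, Alox5 449 with Gm67658, Hpgds 431 with Gm17147 and Ltc4s 268 with Gm26542, and another 4 members share 39 to 189. Lta4h and Pla2g4a share none.

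Pla2g4a, the cytosolic phospholipase A2 that supplies free arachidonic acid (chr1:149705369-149837053, GRCm39, 18 exons), stood at 29.1, 26.1, 20.6 and 38.2 CPM in Mettl3-RNP libraries 1 to 4 and at 38.3, 32.7, 18.8 and 50.3 CPM in Pulsed libraries 1 to 4. Pairs 1, 2 and 4 were lower and pair 3 was higher with Mettl3-RNP, and both groups had their lowest library in replicate 3. The log2 fold change was -0.25 ± 0.105 with a 95% interval of -0.49 to -0.01, and the adjusted p over all genes was 0.211. A difference of this size was thus not past the threshold.

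Ptgs1, the cyclooxygenase found in most resting cells, stood at 63.9, 105, 110 and 113 CPM in Mettl3-RNP libraries 1 to 4. The Pulsed libraries held 93.6, 121, 135 and 93.5 CPM. Mettl3-RNP 1 lay apart from the other Mettl3-RNP libraries, which spanned 105 to 113 CPM, and the groups overlapped. Pairs 1 to 3 were lower and pair 4 was higher, with a fitted log2 fold change of -0.19 ± 0.123 (95% interval -0.48 to 0.09, adjusted p = 0.413), and it ran from -0.33 without replicate 4 to -0.11 without replicate 1.

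Ptgs2, the inducible cyclooxygenase that responds to stimulation within hours in many cells, was read at 4, 24, 387 and 0 counts in Mettl3-RNP libraries 1 to 4 and at 5, 68, 174 and 1 counts in Pulsed libraries 1 to 4. In CPM these were 0.108, 0.561, 12.9 and 0 against 0.141, 1.78, 4.33 and 0.0274, and a count of 0 in Mettl3-RNP 4 allows up to 0.0855 CPM (3 counts). Replicate 3 was highest and replicate 4 lowest in both groups. The spread between the 4 Pulsed libraries covered 5.75 log2 units, more than in 99.8% of tested genes, and the median tested gene covered 0.926. Pair 2 was lower and pair 3 was higher. Pairs 1 and 4, with 4 against 5 counts and 0 against 1, have no direction at this depth. The fitted log2 fold change was 0.04 ± 0.675, with a 95% interval of -1.52 to 1.60 (adjusted p = 0.982), so a difference of 2-fold either way could not be seen at this spread. The value depended on the method, at -0.19 with DESeq2, -0.22 with removeBatchEffect, 0.86 with limma-voom and 1.10 without the replicate block, and none of these passed.

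A set of 20 immediate early genes, which encode transcription factors and feedback regulators induced within the first hour of stimulation, was read beside Ptgs2. Their median level was 5.65, 7.50, 9.19 and 2.37 log2 CPM in Mettl3-RNP libraries 1 to 4 and 6.39, 6.96, 8.81 and 2.08 in Pulsed libraries 1 to 4. The highest and lowest medians thus fell in replicates 3 and 4 of both groups, as for Ptgs2. In each group 19 of the 20 genes were highest in replicate 3, and the exception was Klf2. Egr1 spanned 26.3 to 8655 CPM among the Pulsed libraries and Fos 0.657 to 513 CPM. None of the 20 passed the test between the groups, though Egr1 and Klf2 were each higher with Mettl3-RNP in 4 of 4 pairs (log2 fold change 0.83 and 0.59, adjusted p = 0.158 and 0.157). Over all 14942 genes tested, 2344 were higher in 4 of 4 pairs. The part of the early genes in the Ptgs2 values was not tested.

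**Figure D2:**
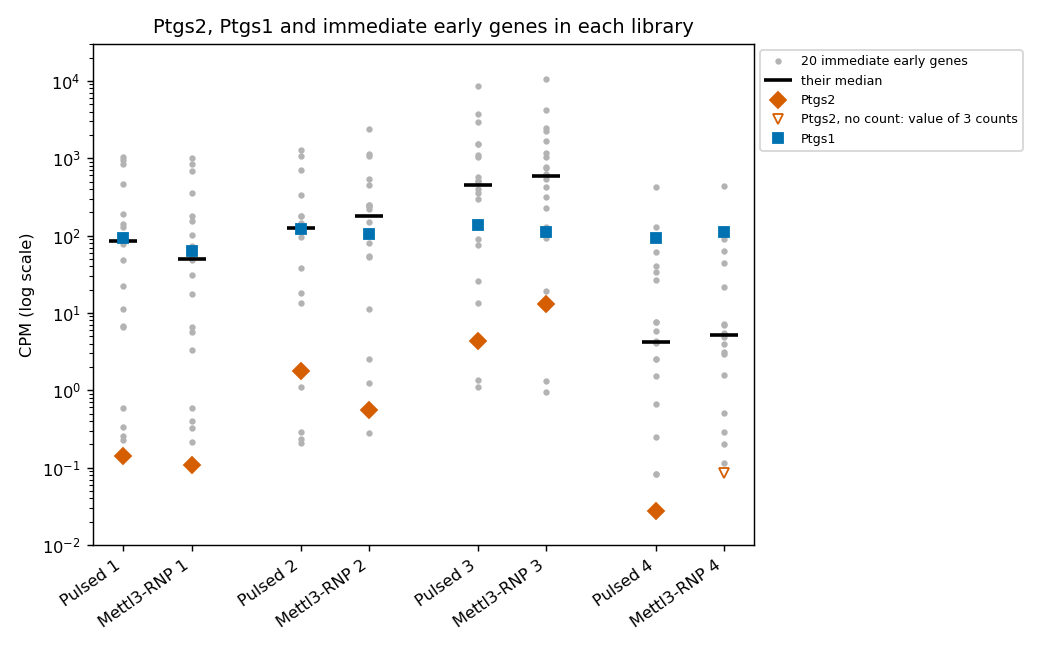
Ptgs2 (diamonds), Ptgs1 (squares) and 20 immediate early genes (grey points, black bar for their median) in CPM on a log axis, by library. Atf3 had no count in both libraries of replicate 4 and is not drawn there, and the open triangle marks the value of 3 counts where Ptgs2 had none. Ptgs2 and the median of the early genes are highest in both libraries of replicate 3, while Ptgs1 stays between 63.9 and 135 CPM.

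By the distance between patterns (root mean square difference of centred log2 CPM over 8 libraries), the genes most like Ptgs2 among 11984 compared were Sik1 at 0.754, Errfi1 at 0.837, Maff at 0.902, Csrnp1 at 0.923 and Marcksl1 at 0.935, against a median distance of 2.68. Errfi1, which encodes a feedback inhibitor of growth factor receptors, stood at 1025 CPM in Mettl3-RNP 3 and 1773 CPM in Pulsed 3, but at 15.8 and 15.7 CPM in the libraries of replicate 4.

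Short windows of the Ptgs2 promoter and of the promoters of Maff and Errfi1 are shown because all 3 hold ACGTCA, the core of the cAMP response element. Of the 5 genes most like Ptgs2, 4 were in the promoter table and only these 2 of them held it. They come from RefSeq promoters (250 bases before to 50 after the annotated start, GRCm38.p6), each 5′ to 3′ on its gene's strand, and capitals mark the matches. In Ptgs2 the match begins at base 13 after the annotated start and overlaps CACGTG, an E-box.
Ptgs2, chr1:150100033-150100062, plus strand: agtcaccactACGTCACGTGgagtccgctt
Maff, chr15:79347480-79347509, plus strand: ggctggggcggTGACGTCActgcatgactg
Errfi1, chr4:150855008-150855037, plus strand: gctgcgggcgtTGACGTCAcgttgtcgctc
A second Ptgs2 window holds TTGCGCAA, a palindrome read by C/EBP factors, at 69 bases before the start.
Ptgs2, chr1:150099951-150099980, plus strand: cgctgcggttcTTGCGCAActcactgaagc
On either strand ACGTCA was present in 7.51% of 32851 promoters, CACGTG in 7.15% and TTGCGCAA in 0.183%. Of the 9 members in that table, Ptgs2 alone held any of these 3 motifs. Another motif searched, the TATA box core TATAAA, was present in 13.6% of promoters and in those of Pla2g4a and Tbxas1 but not of Ptgs2. Further, 6 of the 16 immediate early genes in the table held ACGTCA. In Ptgs2 the 250 bases before the start held TTGCGCAA alone of the 3, as its ACGTCA and CACGTG lay after the start. Ptgs1 held none of the 3 before or after its start, and its 250 bases before the start are shown.
Ptgs1, chr2:36230176-36230425, plus strand: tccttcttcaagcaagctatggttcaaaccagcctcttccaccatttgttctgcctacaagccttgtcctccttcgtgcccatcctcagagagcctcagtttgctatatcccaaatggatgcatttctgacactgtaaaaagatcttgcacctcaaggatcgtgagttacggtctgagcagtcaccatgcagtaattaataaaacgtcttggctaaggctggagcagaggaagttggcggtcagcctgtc
The motifs were chosen after the sequences were seen, and a match describes letters, not a site in use.

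The 3′ UTR of Ptgs2, 2448 bases long, held 14 copies of ATTTA. This is the core of AU-rich elements that shorten the life of many cytokine and early gene mRNAs. The count, not scaled by length, was more than in 96.7% of 12056 tested protein-coding transcripts (median 2). The window with most copies, in exon 10, is shown with ATTTA in capitals.
Ptgs2, chr1:149981547-149981576 (GRCm39), plus strand: atATTTATTTATTTAtgtgaagaATTTAat
The 3′ UTR of Ptgs1, 924 bases long, held 0 copies. Those of Hpgds (2910 bases), Ptges3 (1189 bases) and Pla2g4a (446 bases) held 4 each.

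Hpgds, the haematopoietic prostaglandin D synthase that makes the main mast cell prostanoid (chr6:65094001-65121983), stood at 94.2, 96.9, 98.2 and 131 CPM in Mettl3-RNP libraries 1 to 4 and at 112, 94.1, 57.2 and 119 CPM in Pulsed libraries 1 to 4. Pulsed 3 was the lowest of the 8 libraries, and the groups overlapped. The log2 fold change was 0.17 ± 0.149 (95% interval -0.17 to 0.52, adjusted p = 0.550). Without replicate 3 it was -0.03, so the sign of the fitted value rested on that pair, whose own difference was 0.78.

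Tbxas1, the thromboxane synthase, was steady, with 403, 463, 436 and 393 CPM in Mettl3-RNP libraries 1 to 4 against 409, 488, 381 and 430 CPM in the Pulsed libraries. Its log2 fold change of -0.01 ± 0.0765 had a 95% interval of -0.18 to 0.17 (adjusted p = 0.966). Both groups covered nearly the same range. Per kilobase and within a library, Hpgds amounted to 0.118 ± 0.0332 of Tbxas1 in the Pulsed group and to 0.132 ± 0.0298 in the Mettl3-RNP group (SD, n = 4). The ratio depends on the length used, and per kilobase of all annotated exons it was 0.357 ± 0.101 in the Pulsed group.

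Ptges3, also known as p23, is a co-chaperone of Hsp90 that was described as well as a cytosolic prostaglandin E synthase (chr10:127894816-127913141). It stood at 60.6, 86.3, 111 and 88.3 CPM in Mettl3-RNP libraries 1 to 4. The Pulsed libraries held 81.9, 112, 135 and 135 CPM. Ptges3 was thus lower in 4 of 4 pairs, by 0.44, 0.37, 0.27 and 0.61 log2 units in turn, although the groups overlapped in their ranges because levels differed between replicate numbers. For comparison, 16.0% of all tested genes were lower in 4 of 4 pairs. The group means were 86.7 ± 20.8 and 116 ± 25.1 CPM (SD, n = 4), the log2 fold change was -0.42 ± 0.0763 (95% interval -0.60 to -0.25), and the adjusted p was 0.0318. The interval put Ptges3 at 66.0 to 84.3% of the Pulsed level, and the fitted value was less than a 1.5-fold change.

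The call for Ptges3 depended on the pairs. It was lost without replicate 1 (adjusted p = 0.0932), without replicate 2 (0.121) and without replicate 4 (0.204) and kept without replicate 3 (0.0391), while the log2 fold change stayed between -0.47 and -0.35 in those 4 fits. Without the replicate block the adjusted p was 0.999 at a log2 fold change of -0.42.

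**Figure D3:**
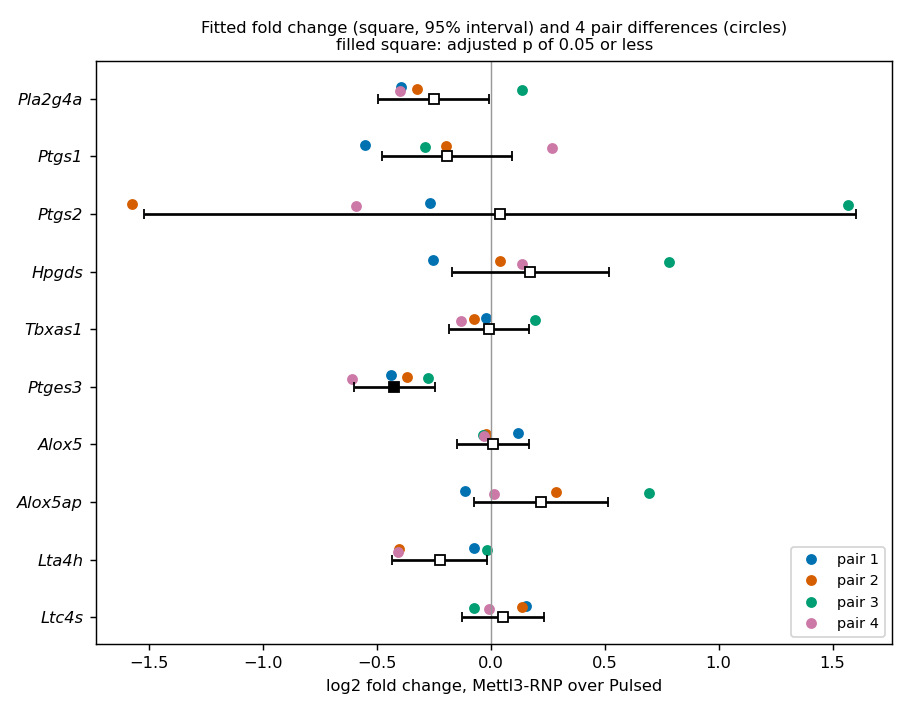
Log2 fold change of each member, Mettl3-RNP over Pulsed, as fitted (squares, bars for the 95% interval, filled where the adjusted p was at most 0.05) and in each pair (coloured circles). The 4 circles of Ptges3 lie left of 0, those of Alox5 within 0.12 of it, and those of Ptgs2 from -1.57 to 1.57.

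GGACT is the letter form of a motif in which METTL3 often methylates the A. It occurred 3 times in the Ptges3 transcript, or 1.49 per kilobase against a median of 1.04 over tested transcripts. The first of these, in the coding part of exon 2, is shown with the motif in capitals, since Ptges3 was the member that passed the test.
Ptges3, chr10:127904572-127904601 (GRCm39), plus strand: agGGACTatgtattcattgaattttgtgtt
Per kilobase, Alox5ap held 3.20 and Ltc4s 3.03, more than 98.8% and 98.5% of transcripts, from 4 copies in 1251 bases and 2 in 660. Pla2g4a held 0.350 per kilobase, from 1 copy, and Lta4h 0. By copies alone, Ptgs2 held the most of the members with 8, then Hpgds with 7 and Alox5 with 5. GGACT was present in 93.8% of tested transcripts. Methylation was not measured in these libraries.

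Alox5, the 5-lipoxygenase that opens the leukotriene branch (chr6:116387032-116438139), was by far the most abundant member. It stood at 2393, 2707, 2732 and 2844 CPM in Mettl3-RNP libraries 1 to 4 and at 2202, 2745, 2800 and 2899 CPM in Pulsed libraries 1 to 4. Replicate 1 was lowest in both groups, and the pairs differed by no more than 0.12 log2 units. The log2 fold change was 0.01 ± 0.0680, with a 95% interval of -0.15 to 0.17 (adjusted p = 0.955), so the level lay between 90.2 and 112% of Pulsed.

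Alox5ap, which encodes FLAP, the protein that presents arachidonic acid to 5-lipoxygenase, held 301, 415, 492 and 322 CPM in Mettl3-RNP libraries 1 to 4. In the Pulsed libraries it was tight, at 326, 340, 304 and 319 CPM. The spread in the Mettl3-RNP group was thus wider, with a coefficient of variation of 23.0% against 4.69%, and pairs 2 and 3 were higher by 0.29 and 0.69 log2 units while pairs 1 and 4 differed by -0.11 and 0.01. The fitted log2 fold change was 0.22 ± 0.127 (95% interval -0.07 to 0.51, adjusted p = 0.358), and it was 0.06 without replicate 3.

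Lta4h, the hydrolase that makes leukotriene B4, stood at 151, 131, 132 and 154 CPM in Mettl3-RNP libraries 1 to 4 against 158, 173, 133 and 204 CPM in the Pulsed libraries. It was lower in 4 of 4 pairs, though by only 0.07 and 0.02 log2 units in pairs 1 and 3. The log2 fold change of -0.22 ± 0.0899 did not pass (95% interval -0.43 to -0.02, adjusted p = 0.192).

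Ltc4s, the synthase that joins leukotriene A4 to glutathione (chr11:50127288-50129443), held 40.8, 32.1, 30.1 and 26.7 CPM in Mettl3-RNP libraries 1 to 4. The Pulsed libraries held 36.7, 29.2, 31.6 and 26.9 CPM. The libraries of replicate 1 were highest and those of replicate 4 lowest in both groups. Its log2 fold change was 0.05 ± 0.0774 (95% interval -0.12 to 0.23, adjusted p = 0.736).

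Ratios of members within a library ask whether 1 gene gained on another that acts at the same branch. Of 4 ratios per kilobase, Ltc4s over Lta4h was 0.714 ± 0.128 with Mettl3-RNP and 0.598 ± 0.159 with Pulsed, higher in 3 of 4 pairs. Alox5ap over Alox5 was 0.323 ± 0.0673 and 0.277 ± 0.0411, also higher in 3 of 4 pairs. Ptgs1 over Hpgds was 1.26 ± 0.280 and 1.76 ± 0.983, lower in 3 of 4 pairs, with Pulsed 3 at 3.17. Exact two-sided sign-flip tests gave p from 0.250 to 0.375 (all 0.375 after Benjamini-Hochberg adjustment over the 4 ratios), in a design whose smallest p is 0.125. Lengths cancel in the comparison between groups but not in the ratios themselves. Per kilobase of all annotated exons, Ltc4s over Lta4h was 2.03 ± 0.540 in the Pulsed group, so which of these 2 genes was the higher turned with the length, and Alox5ap over Alox5 was 0.130 ± 0.0193.

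For 9 of the 10 members, more than 50% of the variance lay between replicate numbers. Of the variance of log2 CPM, replicate numbers held 95.3% for Ptgs2, 93.6% for Alox5, 92.3% for Ltc4s and 86.4% for Pla2g4a, and the median over all tested genes was 78.3%. The other 6 members lay below that median, with Tbxas1 at 70.9%, Ptgs1 at 66.5%, Ptges3 at 64.7%, Hpgds at 61.8%, Lta4h at 51.9% and Alox5ap at 33.5%. Between groups lay 32.6% for Ptges3 and 29.1% for Lta4h, against a median of 5.68% over all tested genes. Other members lay at 22.4% or less. A replicate number may stand for a mouse, a culture and a day at once, and these cannot be told apart.

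The nearest patterns were also found for Alox5, Hpgds and Ltc4s. Most like Alox5 were Hcfc1 at a distance of 0.0416, Mrps9, Xpo5, Tpm1 and Ppp1r8, against a median distance of 0.365. Most like Hpgds were Pycard at 0.122, Nckap1, Adam17, Tufm and Zmym1, and most like Ltc4s were Pcnx3 at 0.0604, Exoc6b, Usp32, Zbtb44 and Fbxo4. These distances describe 8 libraries that share 4 replicate numbers.

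Beyond the 10 members, 68 further genes of the pathway were read from 6 lists. Of these, 35 passed the filter on low counts, 4 passed the test and all 4 were lower with Mettl3-RNP: Mgst2, Ephx2, Pla2g7 and Mboat7. Over all tested genes 3.74% passed and 1.39% passed with a lower level. The direction of the calls depended on the method, since DESeq2 called 2 higher and 5 lower, a fit without the filter 2 higher and 3 lower, and removeBatchEffect 5 higher and 9 lower. In each of these 3, Cbr1 and Pla2g15 were among the higher calls. The median log2 fold change of the 35 was -0.06. Of the 35, 4 were higher and 9 lower in 4 of 4 pairs, against 2344 and 2386 of the 14942 genes tested.

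Mgst2, a microsomal glutathione transferase that can also make leukotriene C4, stood at 7.11, 6.68, 3.38 and 8.44 CPM in Mettl3-RNP libraries 1 to 4 and at 10.6, 12.4, 6.86 and 13.5 CPM in Pulsed libraries 1 to 4. It was lower in 4 of 4 pairs, with a log2 fold change of -0.79 ± 0.120 (adjusted p = 0.0200), or 58.0% of Pulsed. Without replicate 2 the adjusted p was 0.109. The difference between Mgst2 and Ltc4s, which catalyse the same step, was not tested.

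Ephx2, the soluble epoxide hydrolase that inactivates epoxides of arachidonic acid, held 6.03, 0.210, 1.54 and 0.143 CPM in Mettl3-RNP libraries 1 to 4 and 11.6, 0.627, 5.74 and 0.575 CPM in Pulsed libraries 1 to 4. Levels differed far more between replicate numbers than between groups, and each pair was lower with Mettl3-RNP. The log2 fold change was -1.48 ± 0.239 (adjusted p = 0.0240). The call was lost without replicate 2 (0.0966) and without replicate 3 (0.0606), and a filter of 10 counts in every library removed the gene.

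Among phospholipases and enzymes of arachidonate remodelling, 2 of 11 tested genes passed. Pla2g7, a secreted hydrolase of platelet-activating factor, was at 529 ± 141 CPM with Mettl3-RNP and 732 ± 159 CPM with Pulsed (SD, n = 4), lower in 4 of 4 pairs (log2 fold change -0.48 ± 0.0978, adjusted p = 0.0416). Mboat7, which loads arachidonate into phosphatidylinositol, held 184, 188, 160 and 142 CPM against 240, 247, 190 and 189 CPM, and its groups did not overlap (log2 fold change -0.36 ± 0.0669, adjusted p = 0.0328). On the opposite strand Mboat7 shares 2201 exonic bases with Tsen34 and Pla2g7 shares 358 with 1700071M16Rik, so reads of these genes may not be told apart. Both calls depended on the settings, since the adjusted p of Pla2g7 was 0.0573 to 0.137 in the 4 fits that left out a replicate number, and Mboat7 kept its call in 1 of those 4, without replicate 3 (0.0417), and lost it with no filter on low counts (0.113).

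The other genes of that list did not pass. Acsl4, which activates arachidonate for re-esterification, had a log2 fold change of -0.28 ± 0.0809 (lower in 4 of 4 pairs, adjusted p = 0.0961). The lysosomal phospholipase Pla2g15 stood at 7.29 and 3.56 CPM in the libraries of replicate 3 and at 51.8 to 90.1 CPM in the other 6, and within pairs it was higher with Mettl3-RNP in 4 of 4 (log2 fold change 0.49 ± 0.134, adjusted p = 0.0807). Pla2g6, Lpcat2, Lpcat3, Mgll and Daglb had log2 fold changes from -0.24 to 0.34, with Pla2g6 lower and Daglb higher in 4 of 4 pairs. On the opposite strand Daglb shares 2682 exonic bases with Rac1 and Lpcat3 4277 with Emg1, so their reads may not be told apart.

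**Figure D4:**
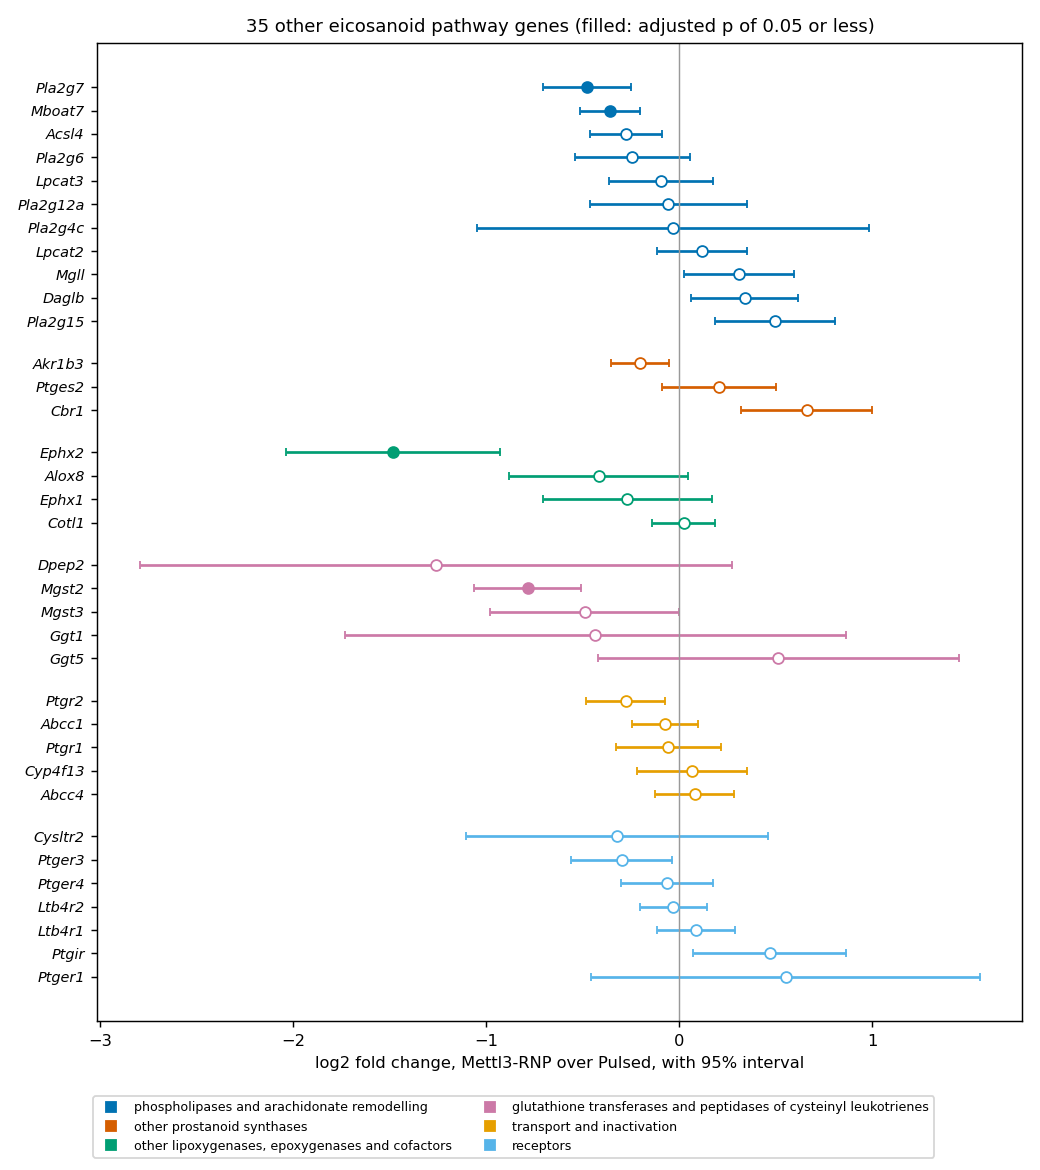
Log2 fold change with its 95% interval for the 35 other pathway genes that were tested, coloured by list, filled where the adjusted p was at most 0.05. The 4 filled points (Pla2g7, Mboat7, Ephx2 and Mgst2) all lie left of 0, and Cbr1 is the highest fitted value at 0.66.

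Of 7 other prostanoid synthases listed, 4 had too few counts to be tested and 3 were tested. Ptges, the inducible prostaglandin E synthase, had 0 to 6 counts in a library and Ptgds, the lipocalin-type prostaglandin D synthase, 0 to 4. Of the 3 tested, none passed. Ptges2, another prostaglandin E synthase, was at 9.94 ± 2.13 CPM with Mettl3-RNP and 8.50 ± 0.463 CPM with Pulsed. It was higher in 2 of 4 pairs (log2 fold change 0.21 ± 0.127, adjusted p = 0.392). Cbr1, a carbonyl reductase that can convert prostaglandin E2, was at 16.7 ± 1.51 CPM with Mettl3-RNP and 11.0 ± 3.64 CPM with Pulsed, higher in 4 of 4 pairs (log2 fold change 0.66 ± 0.147, adjusted p = 0.0533). Akr1b3 (Akr1b1 in GENCODE), an aldo-keto reductase, was lower in 4 of 4 pairs with groups that did not overlap, at 46.5 ± 1.37 against 53.5 ± 2.87 CPM (log2 fold change -0.20 ± 0.0651, adjusted p = 0.120).

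Of the genes of export and inactivation, 0 of 5 tested passed. Abcc1, the exporter of leukotriene C4, was at 172 ± 28.6 CPM with Mettl3-RNP and 180 ± 16.6 CPM with Pulsed (log2 fold change -0.07 ± 0.0733, 95% interval -0.24 to 0.10). Abcc4, a prostaglandin exporter, had a log2 fold change of 0.08 ± 0.0885, and Ptgr2, a prostaglandin reductase, one of -0.28 ± 0.0878 (lower in 4 of 4 pairs, adjusted p = 0.115). Ptgr2 shares 1897 exonic bases with Gm47484 on the opposite strand. Hpgd, the dehydrogenase that inactivates prostaglandins, had 0 counts in 4 of 4 Mettl3-RNP libraries and 18, 1, 7 and 1 counts in Pulsed libraries 1 to 4, too few to be tested. Cotl1, which binds 5-lipoxygenase, had a log2 fold change of 0.02 ± 0.0704.

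Receptors through which mast cells sense eicosanoids were read last, and 0 of 7 tested passed. Ptger3, the receptor by which prostaglandin E2 activates mast cells, was the most abundant at 257 ± 29.3 CPM with Mettl3-RNP and 318 ± 52.6 CPM with Pulsed (log2 fold change -0.30 ± 0.113, lower in 3 of 4 pairs, adjusted p = 0.171). Ptger4 stood at 50.0 ± 7.23 and 52.9 ± 11.3 CPM. The prostacyclin receptor Ptgir, named after its values were seen, was higher in 4 of 4 pairs (log2 fold change 0.47 ± 0.171, adjusted p = 0.155). The leukotriene B4 receptors Ltb4r1 and Ltb4r2 had log2 fold changes of 0.09 and -0.03, and both were lowest in replicate 3. Cysltr1 had 2 to 7 counts in a library and Ptgdr2 at most 3.

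The libraries held 32643260 to 45324826 counts. Mast cell markers were abundant, with summed levels of 48430 to 66005 CPM with Mettl3-RNP and 52499 to 71555 CPM with Pulsed, and 1 of 12 passed the test, Cpa3, a granule protease that was lower (log2 fold change -0.37, adjusted p = 0.0328). Mitf and Il1rl1 of that list were each higher in 4 of 4 pairs and did not pass (log2 fold change 0.30 and 0.24, adjusted p = 0.0709 and 0.117). Of 10 neutrophil markers, S100a8, S100a9, Elane, Camp and Retnlg had 0 counts in all libraries, and the list summed to at most 0.398 CPM. Of 10 macrophage markers 5 were tested and 1 was lower, Adgre1. The list summed to 152 to 409 CPM with Mettl3-RNP and 73.0 to 394 CPM with Pulsed, mostly Cx3cr1, with Csf1r, C1qa and C1qb under 0.3 CPM in the group means. Cd68 stood at 16.7 CPM with Mettl3-RNP and 4.50 CPM with Pulsed, higher in 3 of 4 pairs, with 23.8 and 28.3 CPM in Mettl3-RNP 2 and 4 (log2 fold change 1.63 ± 0.569, adjusted p = 0.142). Lower levels were also called for 2 of 6 basophil markers, Il18rap and Ifitm1, and 1 of 6 eosinophil markers, Siglecf. The basophil list summed to 3548 to 4510 CPM with Mettl3-RNP and 4030 to 5183 CPM with Pulsed. Most of this was Itga2b at 1985 and 1756 CPM in turn, Ifitm1 at 1389 and 2098 and Cd200r3 at 688 and 572. Il18rap stood at 29.5 and 51.3 CPM. Mcpt8 and Prss34 were at 1.88 and 0.702 CPM with Mettl3-RNP and 2.56 and 1.13 CPM with Pulsed. The eosinophil list summed to at most 8.66 CPM, with Epx and Ear1 at 0. Mcpt8, Prss34 and the eosinophil marker Ccr3 were each lower in 4 of 4 pairs, and Cd200r3 and Itga2b of the basophil list higher in 4 of 4, and none of these 5 passed. Platelets also express Ptgs1 and Tbxas1. Of 7 megakaryocyte and platelet markers 3 were tested and none passed, with Pf4 and Ppbp under 0.3 CPM in the group means. Gp1ba stood at 623 CPM with Mettl3-RNP and 494 CPM with Pulsed, higher in 4 of 4 pairs (adjusted p = 0.0912), and Itgb3 at 12.7 and 25.5 CPM (adjusted p = 0.225). The part of these cells in the member values was not tested. Summed reads of 1773 olfactory and vomeronasal receptor genes, which mast cells are not known to use, stood at 295 CPM in Mettl3-RNP 2 and at 48.9 to 170 CPM in the other 7 libraries.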

How the data were processed

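Poly-A RNA of 8 BMMC libraries was sequenced in pairs of reads. The authors checked reads with FastQC 0.11.9, used HISAT2 2.2.1 for alignment to GRCm39 and featureCounts 2.0.1 for counting, and deposited whole-number counts per Ensembl gene without normalization, 1 table per library. Strand and multimapping settings are not given in the sources used here. GENCODE mouse release 39 named 56017 of the 56748 IDs.

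Genes with about 10 counts in 4 libraries were kept (filterByExpr, edgeR 4.0.16, R 4.3.3), 14942 in all. Groups were compared by the quasi-likelihood test of edgeR with TMM library sizes and a block for the replicate number. Benjamini-Hochberg adjustment ran over all 14942 genes. An adjusted p of 0.05 or less was called. Intervals are 95% intervals of the fit. CPM used TMM library sizes, and log2 CPM a prior count of 2. A count of 0 was taken to allow up to 3 counts, which covers counting error only, as reads carry no molecular identifiers. The scripts were tested on simulated data.

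The series text names 4 mice for 8 samples, and both groups carry numbers 1 to 4. After centring on the group mean, libraries with the same number correlated at 0.825, 0.489, 0.879 and 0.765 over 11985 genes averaging 1 CPM or more (other pairs at most 0.183), and at 0.534, 0.0738, 0.735 and 0.580 over all tested genes (other pairs at most 0.249). The labels do not say that cultures were separate, so p-values measure the spread between these pairs. A check for duplicate libraries found no pair of libraries of a group that agreed within sampling noise (lowest chi-square per degree of freedom, 56.8).

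The members and lists were chosen with earlier results of these data known. Text names the members, pathway genes that passed the test, averaged 10 CPM or more, or act in mast cell eicosanoid signalling, and the 5 genes most alike to Ptgs2, Hpgds, Alox5 and Ltc4s. Per-kilobase levels used the CCDS transcript, and the length of all annotated exons was an alternative for ratios added after the data were seen. Alternatives were no block, DESeq2 1.42.0, limma-voom and removeBatchEffect with limma-trend (limma 3.58.1), DESeq2 size factors, library size alone, no filter, 10 counts in every library, a 1.5-fold limit, and each replicate number left out.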

Additional observations from a re-analysis of the deposited data

Results flagged for a closer look

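Each value below stood apart from the other 3 libraries of its group by Dixon's test at the 95% level. Of 65 groups of 4 examined over 37 genes, 5 values did so, where chance gives about 3.25. Mettl3-RNP 1 had 63.9 CPM of Ptgs1 against 105 to 113 CPM in the other 3. Mettl3-RNP 3 had 12.9 CPM of Ptgs2 against at most 0.561 CPM. Mettl3-RNP 4 had 131 CPM of Hpgds against 94.2 to 98.2 CPM. Pulsed 3 had 11.2 CPM of Mettl3 against 24.5 to 26.5 CPM, and 36.0 CPM of Ptger4 against 57.6 to 59.2 CPM.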

How the results depend on the processing

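Without the replicate block, 0 of the 10 synthesis genes, 0 of the other pathway genes and 0 of all genes were called by edgeR (0, 3 and 579 had an unadjusted p under 0.05), and Mettl3 was at -1.31 with an adjusted p of 0.744, so every call here rests on the pairing. Leaving out 1 replicate number gave 0 to 1 synthesis genes, 0 to 3 other pathway genes and 26 to 383 of all genes, the lowest without replicate 2, and Mettl3 between -1.42 and -1.22. With removeBatchEffect, which leaves the degrees of freedom of the batch uncounted in the test, the counts were 3 (Ptges3, Lta4h and Pla2g4a), 14 and 4564. DESeq2 called 7 other pathway genes and 1449 of all genes against 4 and 559. The 1.5-fold limit left 0 synthesis genes, 2 other pathway genes (Ephx2 and Mgst2) and 308 of all genes. Without a filter 993 genes were called, and with 10 counts in every library 959. Called genes split into 351 higher and 208 lower, with library size alone into 425 and 170, with removeBatchEffect into 2269 and 2295, and without replicate 2 into 11 and 15, so the lean to higher calls depended on the setting.

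Of 117 alternative values of the members, 102 kept their direction and side of the threshold. Signs turned for Ptgs2 with DESeq2 (-0.19) and removeBatchEffect (-0.22), and for Tbxas1 with library size alone (0.0251) and no filter (0.0078). Over the fits without 1 replicate number, values ran from -0.0260 to 0.28 for Hpgds, -0.0635 to 0.0324 for Alox5, -0.0157 to 0.0936 for Ltc4s and -0.0772 to 0.0436 for Tbxas1. The cause was not tested. Ptgs2 could not be fitted without replicate 2 or 3 or with 10 counts in every library, as it fell under the filter. Its depth, 0 to 387 counts, limits what can be seen of it. Groups of 4 pairs cannot show small changes of the other members, whose 95% intervals bound them. Of 4 ratios between members, 3 moved by more than 1 SD with the length of all annotated exons, an alternative chosen after the data were seen.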
